A study of Mus musculus with 36 samples.

Results

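The 10 genes followed here belong to the epithelial tight junction and were read in libraries of mouse small intestine. They are the claudins Cldn2, Cldn3, Cldn4, Cldn7, Cldn15 and Cldn23, and Ocln, F11r, Tjp1 and Cgn. They were taken by gene ID from the 27179 gene rows of the 12 count files of intestinal RNA, where all 10 were found and all 10 passed the filter on low counts that left 14716 genes for testing. The mice were lnc13 wild type (WT) or lnc13 knockout (KO), all on the DQ8 background, named for a human MHC class II molecule, and all had been challenged with gluten. lnc13 is a long noncoding RNA. RNA came from whole small intestine tissue, from lamina propria lymphocytes (LPL) and from intraepithelial lymphocytes (IEL), with 2 WT and 2 KO libraries of each, described in the labels as biological replicates. The other 24 of the 36 samples were not used here. Age, sex, strain and the number of animals per library are not given in the sources used here, and since lnc13 itself was not analysed here its RNA gives no check of the genotypes.

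Tight junctions seal the space between neighbouring epithelial cells near their apical side. Claudins are small membrane proteins that polymerise into the strands of the junction, and the mix of claudins sets which ions pass between cells. Occludin and JAM-A sit in the membrane beside them, and the cytoplasmic plaque proteins ZO-1 and cingulin tie the strands to actin. In the gut these proteins come mainly from epithelial cells, though endothelium also makes ZO-1 and JAM-A, and leukocytes make JAM-A. Permeability of the junction is a long-standing subject of coeliac disease research.

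Cldn4 (gene ID 12740, GRCm38 chromosome 5, 134945123 to 134946934) and Cldn3 (gene ID 12739, chromosome 5, 134986214 to 134987476) are neighbours, with 39.3 kb between them. Cldn4 had the widest range of the 10 members over the 12 libraries, 3.84 between its highest and lowest log2(CPM + 1), and Cldn3 the narrowest, 0.73. CPM are read counts scaled to a common library size, with a factor between libraries. The 250 bases before the start of each of these genes are therefore shown, with those of Cldn2, which had the next widest range (2.42), and F11r, which had the widest of the 4 members that are not claudins. The sequences are from RefSeq on GRCm38.p6 and read 5′ to 3′ on the strand of the gene. Capitals mark matches, on either strand, to any of the motifs searched. The GC box was searched as GGGCGG, the E-box as CAGGTG, and AP-1 as TGANTCA. The GATA motif was searched as AGATAA, the TATA box as TATAAA, and the CDX motif as TTTATNG.
Cldn4, chr5:134946935-134947184, minus strand: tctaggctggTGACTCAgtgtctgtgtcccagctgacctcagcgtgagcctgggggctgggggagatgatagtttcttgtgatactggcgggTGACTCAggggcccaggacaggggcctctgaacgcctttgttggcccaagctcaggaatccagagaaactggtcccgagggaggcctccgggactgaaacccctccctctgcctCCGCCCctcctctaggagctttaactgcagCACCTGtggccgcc
Cldn3, chr5:134985964-134986213, plus strand: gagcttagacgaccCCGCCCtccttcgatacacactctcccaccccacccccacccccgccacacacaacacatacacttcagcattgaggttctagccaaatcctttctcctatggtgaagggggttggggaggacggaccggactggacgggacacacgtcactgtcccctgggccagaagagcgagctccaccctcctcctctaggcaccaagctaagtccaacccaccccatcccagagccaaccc
Cldn2, chrX:139800558-139800807, plus strand: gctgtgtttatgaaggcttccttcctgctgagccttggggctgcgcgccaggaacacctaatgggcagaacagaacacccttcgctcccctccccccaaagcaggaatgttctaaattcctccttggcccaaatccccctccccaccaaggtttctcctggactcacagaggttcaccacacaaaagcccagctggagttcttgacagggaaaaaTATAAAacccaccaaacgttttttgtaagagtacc
F11r, chr1:171437311-171437560, plus strand: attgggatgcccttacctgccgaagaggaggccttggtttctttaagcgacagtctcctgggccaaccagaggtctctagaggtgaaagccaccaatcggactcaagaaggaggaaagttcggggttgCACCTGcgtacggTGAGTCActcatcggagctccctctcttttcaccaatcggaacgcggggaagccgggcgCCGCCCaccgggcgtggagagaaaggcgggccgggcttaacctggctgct
In these windows Cldn4 held 2 AP-1 matches, 1 E-box match and 1 GC box match, and F11r held 1 of each, while Cldn3 held 1 GC box match and Cldn2 only a TATA match, 35 bases before its start. RefSeq windows were at hand for 9 of the 10 members, all except Cldn23. Those of Tjp1 and Cgn lie within the gene coordinates given below and so do not precede the outermost start. Where a member had several entries, the one nearest the outer end of the gene was used, while the background used the first listed. The GC box letters were in 7 of the 9, against 32.9% of 27025 promoter windows, and the AP-1 letters in 3 of the 9 (Cldn4, Cldn15 and F11r), against 6.87%. The E-box letters were in 2 of the 9, against 17.1%, and the TATA letters in 1, against 13.0%. The GATA and CDX letters were in 0 of the 9, against 10.3% and 10.2%. A match to letters is a description of the sequence and was not tested as a binding site.

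The libraries held between 10186522 and 13620975 reads in genes. All 3 preparations held epithelial RNA, whatever their label: the summed level of 10 pan-epithelial genes was 22720 to 29380 CPM in tissue, 10400 to 13940 in LPL and 11700 to 13570 in IEL libraries, with 0 of the 10 at 0 in any library. The 10 T cell genes summed to 551 to 2159 CPM in IEL libraries and to 72.1 to 218 in tissue. In LPL libraries they summed to 189 in WT replicate 1 and to between 6.83 and 22.1 in the other 3, so T cell genes did not mark LPL as they marked IEL. The 4 plasma cell genes summed to 471 to 5045 CPM in LPL, against 70.7 to 672 in tissue and 53.0 to 170.3 in IEL. Cd3e was 26.7 to 78.7 CPM in IEL, 0.346 to 5.92 in LPL and 3.30 to 12.5 in tissue. LPL libraries also held pancreatic RNA, 4750 to 9145 CPM over 10 genes against at most 90.6 elsewhere. Markers of gut region also differed between the preparations, and whether different pieces of gut were taken was not tested. Genes of distal intestine summed to 6494 to 8159 CPM in tissue, 161 to 308 in LPL and 269 to 496 in IEL, and genes of proximal intestine to 2240 to 3737 in IEL and at most 453 elsewhere. In tissue the libraries numbered 2 of both genotypes stood apart from those numbered 1, with the Y-linked Ddx3y at 34.0 and 38.6 CPM against at most 0.109 in those and in all LPL and IEL libraries, and with Myh11 of smooth muscle at 770 and 656 CPM against 211 and 170. Lactase (Lct) in turn was 81.1 and 211 CPM in those numbered 1 and 0.330 and 0.359 in those numbered 2. Xist was 81.8 and 58.9 CPM in tissue numbered 1, at most 0.247 in tissue numbered 2, and 196 to 383 in all 8 LPL and IEL libraries.

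**Figure D1:**
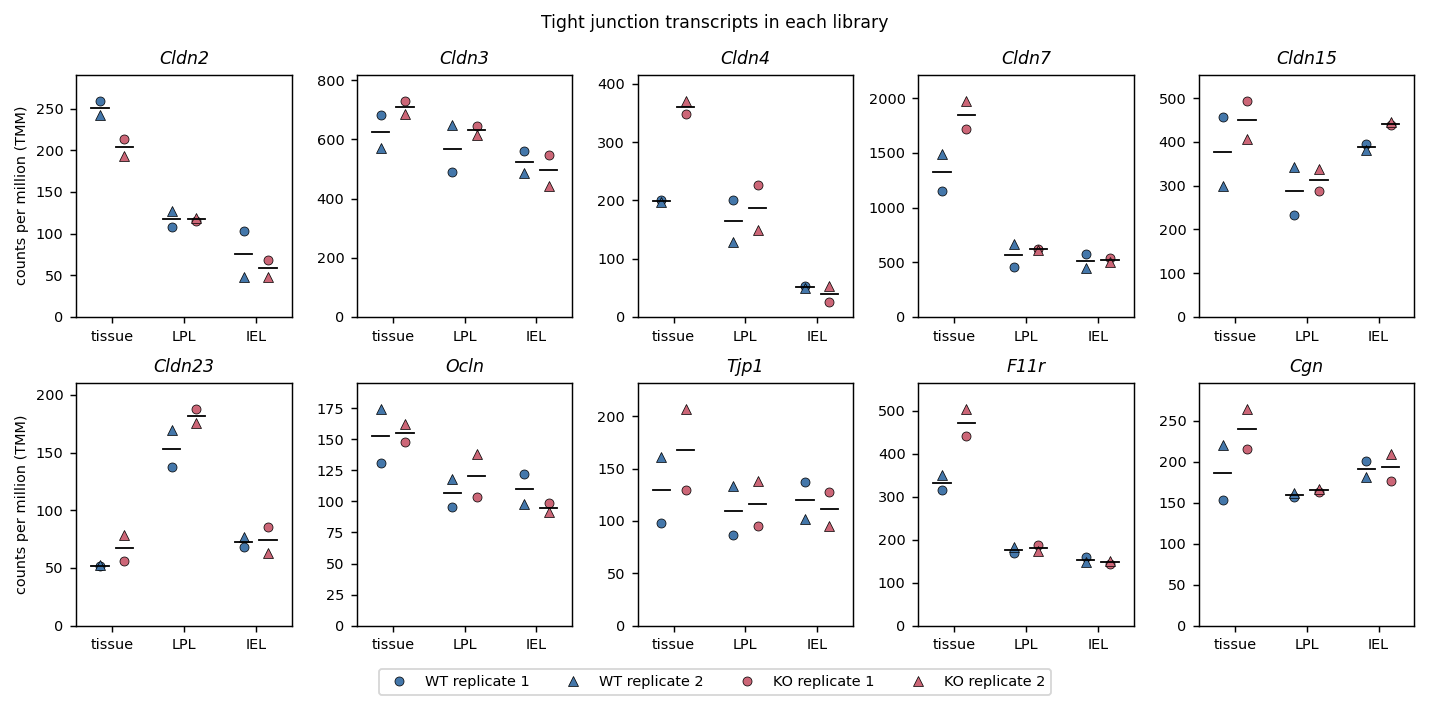
CPM of the 10 tight junction genes in each of the 12 libraries, by preparation and genotype, with 1 point per library. Cldn2, Cldn7 and F11r are highest in tissue, Cldn23 is highest in LPL, and Cldn4 is lowest in IEL, at 25.0 to 53.8 CPM.

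The preparations were compared over both genotypes (n = 4 libraries each) to describe how the junction genes are spread over the fractions of the gut. Against whole tissue, Cldn4, Cldn2, Cldn7 and F11r fell strongly in IEL preparations, and Ocln fell less. In LPL preparations Cldn7, F11r, Cldn2 and Ocln fell, and Cldn23 rose. Between IEL and LPL, Cldn4, Cldn23 and Cldn2 were lower in IEL. By edgeR's quasi-likelihood test with Benjamini-Hochberg adjustment over all genes, IEL preparations had 5 of 10 members below tissue and 0 above, where 45% of all genes were called, 23.1% lower and 21.9% higher. LPL preparations had 4 of 10 members below tissue and 1 above, beside 55.3% of all genes, 28% lower and 27.3% higher. Set against LPL, IEL preparations had 3 of 10 members lower and 0 higher, beside 19.4% of all genes, 7.92% lower and 11.5% higher. Without regard to the test, all libraries of IEL lay below all of tissue for 6 members and above for 0 (22.9% of all genes in each direction). LPL lay below tissue in this way for 3 members and above for 1 (25.1% and 26.5% of genes), and IEL below LPL for 4 and above for 2 (15.1% and 17.3%). The median log2 difference of the members was -0.49 in IEL minus tissue (all genes 0.05), -0.45 in LPL minus tissue (all genes 0.03) and -0.21 in IEL minus LPL (all genes -0.03). The 3 comparisons share their libraries and are not independent of each other. In such bulk RNA, fewer cells of a type and less RNA per cell cannot be told apart.

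Of 10 pan-epithelial genes 7 were called lower and 0 higher in IEL than in tissue, and 6 lower and 1 higher in LPL (medians -0.88 in each, range in LPL -2.57 to 1.30), beside the shares of all genes given above. Other epithelial lists moved in different directions. Of 8 villus genes 5 were called lower and 1 higher in IEL, and 8 lower in LPL (medians -1.81 and -4.7). Of 9 crypt genes 4 were called higher and 0 lower in IEL, and 6 higher and 0 lower in LPL. Of 6 Paneth cell genes 3 were lower in IEL and 0 called in LPL, and of 6 goblet cell genes 3 were lower in IEL, while in LPL 1 was higher and 1 lower. The members were also scaled to these 10 epithelial genes, which moved the median of all genes to 0.91 in IEL minus tissue, 0.80 in LPL minus tissue and 0.07 in IEL minus LPL. On that scale called members stood on both sides of 0 in each comparison. In IEL against tissue 4 were lower (Cldn2, Cldn4, Cldn7 and F11r) and 4 higher (Cldn3, Cldn15, Cldn23 and Cgn), beside 8.34% and 60.1% of all genes. In LPL against tissue 2 were lower (Cldn7 and F11r) and 2 higher (Cldn3 and Cldn23), beside 12.6% and 53.5%. In IEL against LPL 3 were lower (Cldn2, Cldn4 and Cldn23) and 1 higher (Cldn15), beside 4.85% and 12%. Markers of villus, crypt and intestinal region also differed between the preparations, and their part in each difference was not tested.

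**Figure D2:**
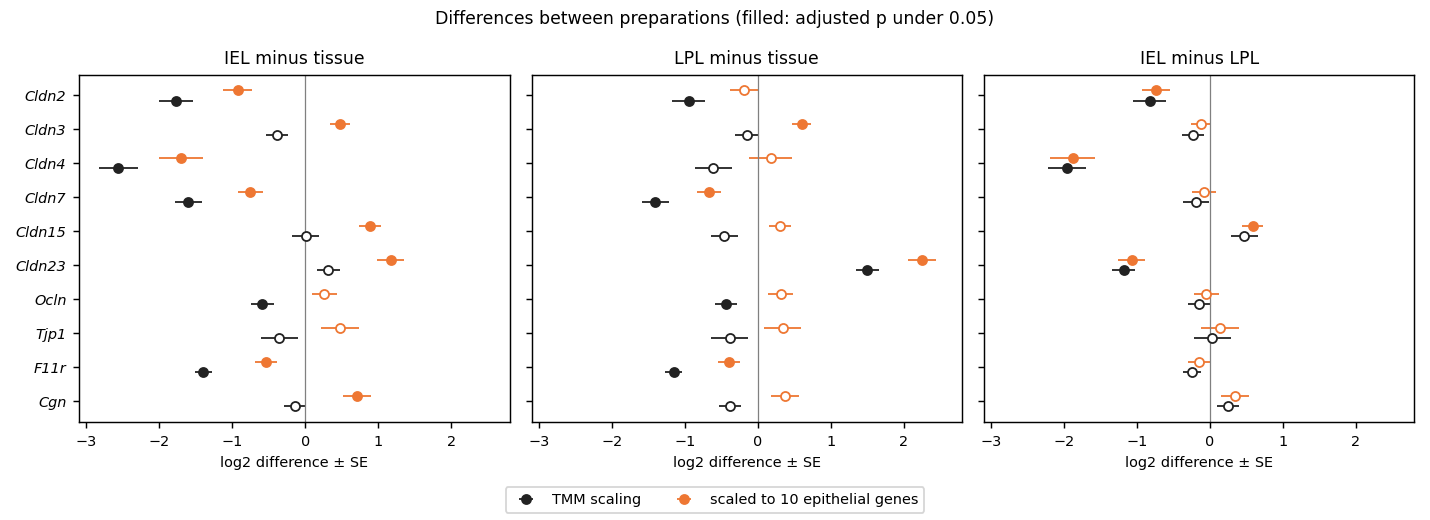
Log2 difference of each member in the 3 comparisons of preparations, with bars of ± SE, in the main scaling and scaled to 10 pan-epithelial genes. In both scalings Cldn4, Cldn2, Cldn7 and F11r lie below 0 in IEL minus tissue and Cldn23 lies above 0 in LPL minus tissue, while Cldn3, Ocln, Tjp1 and Cgn cross from below to above 0 in both comparisons with tissue.

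Cldn2 (gene ID 12738, chromosome X, 139800808 to 139811386) encodes a claudin that forms pores for sodium and water and is known from crypts. In tissue its level was 260 and 242 CPM (WT) and 214 and 193 CPM (KO). The LPL libraries had 108 and 128 CPM in WT and 115 and 118.6 in KO, and in IEL 102 and 47.9 in WT and 68.5 and 48.0 in KO. All tissue libraries were above all LPL libraries, and all of those above all IEL libraries. The mean level was 227 ± 29.5 CPM (SD, n = 4) in tissue, 117 ± 8.26 in LPL and 66.7 ± 25.8 in IEL. Cldn2 was 3.41-fold lower in IEL than in tissue (log2 -1.77, SE 0.23, adjusted p = 0.000693). In LPL it was 1.93-fold lower than in tissue (log2 -0.94, SE 0.23, adjusted p = 0.00692), a call that did not hold on the epithelial scale (log2 -0.18, adjusted p = 0.428, over its 16 alternatives 7.04e-05 to 0.428). In IEL it was below LPL (log2 -0.83, SE 0.23, adjusted p = 0.0338). That last call was lost without any 1 of 5 libraries, namely WT LPL replicate 2 (log2 -0.79, adjusted p = 0.0682), KO LPL replicate 1 (-0.88, 0.0789), KO LPL replicate 2 (-0.84, 0.0738), WT IEL replicate 2 (-0.65, 0.0642) or KO IEL replicate 2 (-0.75, 0.116). Among all its 14 alternatives the adjusted p ran from 0.00297 to 0.116. The 9 crypt genes summed to 534 and 450 CPM in WT tissue and 408 and 301 in KO tissue, the same order of libraries as for Cldn2. In IEL they summed to 1214 and 660 CPM in WT and 953 and 628 in KO, with the libraries highest and next highest in Cldn2 also highest and next highest in crypt genes, and in LPL to 976 to 1294 CPM. Between preparations the order was another, since these sums were lowest in tissue, where Cldn2 was highest. The part of crypt content in the Cldn2 level was not tested. Tissue also differed from both cell preparations in sex-linked RNA (Xist at most 81.8 CPM in tissue and at least 196 in LPL and IEL), which cannot be told apart from the preparation for this X-linked gene; without both tissue libraries numbered 2, which carried Ddx3y, Cldn2 had -1.90 in IEL minus tissue and -1.04 in LPL minus tissue, both still called.

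Cldn15 (gene ID 60363, chromosome 5, 136967869 to 136975845) encodes the other sodium pore of the small intestine, which in mice supplies sodium for nutrient uptake. Its level in tissue was 457 and 299 CPM in WT and 494 and 406 in KO. In LPL it was 234 and 342 CPM in WT and 289 and 337 in KO, and in IEL 396 and 382 in WT and 438 and 446 in KO. The IEL libraries lay above all LPL libraries and within the range of tissue. Mean levels were 414 ± 84.9 CPM in tissue, 300.4 ± 50.4 in LPL and 415 ± 31.2 in IEL. None of the 3 differences passed the test in the main scaling (IEL minus tissue log2 0.0075, SE 0.18, adjusted p = 0.98, LPL minus tissue -0.46, SE 0.19, adjusted p = 0.061, and IEL minus LPL 0.47, SE 0.19, adjusted p = 0.109). Cldn15 was higher in IEL on the epithelial scale, against tissue (log2 0.88, adjusted p = 0.000774, over its 16 alternatives 0.000774 to 1.00) and against LPL (0.58, adjusted p = 0.0286, over its 14 alternatives 0.0286 to 0.36). It was called lower in LPL than in tissue under 5 of its 16 alternatives, among them those without WT tissue replicate 2 (-0.57) or WT LPL replicate 2 (-0.60). Over the 16 its log2 difference in LPL minus tissue ran from -0.70 to 0.30.

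The ratio of the 2 pore claudins can be read within a library, where no scaling between libraries enters. Reads of Cldn15 were 1.23 to 2.31 times those of Cldn2 in the 4 tissue libraries, 2.17 to 2.84 times in LPL and 3.87 to 9.28 times in IEL. Every IEL library was above every other library. The read ratio depends on the lengths of both genes and is comparable only between libraries.

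Cldn4 is one of the sealing claudins, which reduce the passage of ions. Its level in tissue was 200.1 and 197 CPM in WT and 348 and 372 in KO. LPL libraries had 201 and 128 CPM in WT and 226 and 149 in KO, and in IEL 53.3 and 50.2 in WT and 25.0 and 53.8 in KO. Every IEL library lay below every tissue and LPL library, whereas LPL and tissue overlapped. Means were 279 ± 93.4 CPM in tissue, 175.8 ± 45.2 in LPL and 45.6 ± 13.8 in IEL. Cldn4 was 5.92-fold lower in IEL than in tissue (log2 -2.56, SE 0.27, adjusted p = 0.000306) and 3.88-fold lower than in LPL (log2 -1.96, SE 0.26, adjusted p = 0.0016), and both calls held under all of their alternatives, 16 and 14, the epithelial scale included (-1.70 and -1.88). Its difference between LPL and tissue missed the threshold (log2 -0.61, SE 0.25, adjusted p = 0.0666). It passed without WT LPL replicate 1 (-0.78, adjusted p = 0.0405) and had the opposite sign on the epithelial scale (0.18, adjusted p = 0.605, over its 16 alternatives 0.0252 to 0.605).

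Cldn3, also a sealing claudin, ranged least. In tissue its level was 681 and 571 CPM in WT and 732 and 686 in KO. The LPL values were 489 and 648 CPM in WT and 646 and 616 in KO, and in IEL 562 and 487 in WT and 548 and 442 in KO. IEL lay just below tissue with no overlap, and LPL overlapped with both. No difference passed in the main scaling (IEL minus tissue log2 -0.39, SE 0.16, adjusted p = 0.0707, LPL minus tissue -0.15, SE 0.16, adjusted p = 0.424, and IEL minus LPL -0.23, SE 0.16, adjusted p = 0.321). With DESeq2's size factors IEL minus tissue passed (-0.46, adjusted p = 0.0372). On the epithelial scale Cldn3 was higher than in tissue in IEL (log2 0.48, adjusted p = 0.0103, over its 16 alternatives 0.00619 to 0.273) and in LPL (0.60, adjusted p = 0.00323, over its 16 alternatives 0.00323 to 0.849). Within a library the reads of Cldn3 were 1.85 to 3.40 times those of its neighbour Cldn4 in tissue, 2.44 to 5.06 times in LPL and 8.22 to 21.9 times in IEL. In this ratio the 4 IEL libraries stood above all others.

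Cldn7 (gene ID 53624, chromosome 11, 69964779 to 69967886) encodes a claudin that also lies along the lateral membrane and is needed for an intact gut in mice. Its level in tissue was 1152 and 1492 CPM in WT and 1723 and 1980 in KO. LPL libraries stood at 458 and 671 CPM in WT and 624 and 609 in KO, and in IEL 572 and 444 in WT and 539 and 507 in KO. Tissue was above both cell preparations in every library, and LPL and IEL overlapped. Means were 1587 ± 352 CPM in tissue, 591 ± 92.5 in LPL and 515 ± 54.7 in IEL. Cldn7 was 3.04-fold lower in IEL than in tissue (log2 -1.60, SE 0.19, adjusted p = 0.000466) and 2.65-fold lower in LPL (log2 -1.41, SE 0.19, adjusted p = 0.000326). On the epithelial scale the differences were -0.75 and -0.67 and were still called. The difference between IEL and LPL was not called (log2 -0.20, SE 0.18, adjusted p = 0.478).

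Cldn23 (gene ID 71908, chromosome 8, 35824709 to 35826559), a less studied claudin that in mouse gut is enriched in differentiated luminal epithelium, followed an order of its own. In tissue its level was 51.4 and 52.2 CPM in WT and 56.0 and 78.2 in KO. LPL libraries stood at 138 and 169 CPM in WT and 188 and 175.6 in KO, and in IEL 68.3 and 76.7 in WT and 85.7 and 63.2 in KO. The 4 LPL libraries were above all others, and IEL and tissue overlapped. Means were 168 ± 21.4 CPM in LPL, 73.5 ± 9.87 in IEL and 59.4 ± 12.7 in tissue. Cldn23 was 2.83-fold higher in LPL than in tissue (log2 1.502, SE 0.16, adjusted p = 9.58e-05) and 2.27-fold lower in IEL than in LPL (log2 -1.18, SE 0.15, adjusted p = 0.00145). Both calls held under all alternatives, 16 and 14, with ranges of 1.40 to 2.25 and -1.32 to -1.07. IEL minus tissue missed the threshold (log2 0.32, SE 0.15, adjusted p = 0.121) and passed on the epithelial scale (1.17, adjusted p = 0.000495, over its 16 alternatives 0.000495 to 0.364). LPL is also where the pancreas genes stood high and where villus genes were lowest, at 904 to 1619 CPM summed over 8 genes against 15310 to 38990 in tissue and 6080 to 10760 in IEL. The part of these other cells in the Cldn23 level was not tested.

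The make-up of claudin reads within each library is free of the scaling between libraries. Cldn7 supplied 48.8% ± 5.53 (SD, n = 4) of the reads of the 6 claudins in tissue, 30.2% ± 1.66 in LPL and 31.6% ± 1.28 in IEL. For Cldn15 the share was 12.9% ± 2.73 in tissue, 15.4% ± 1.47 in LPL and 25.6% ± 2.44 in IEL. For Cldn23 it was 1.83% ± 0.219, 8.58% ± 0.379 and 4.53% ± 0.653 in the same order. The lowest tissue share of Cldn7, 41.1%, was above the highest share elsewhere, 32.6%, and the lowest IEL share of Cldn15, 22.6%, was above the highest elsewhere, 16.8%. The Cldn4 share was 8.45% ± 1.65 in tissue, 9.18% ± 2.89 in LPL and 2.83% ± 0.928 in IEL. Shares sum to 100% within a library, so a high share of one claudin lowers the others.

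**Figure D3:**
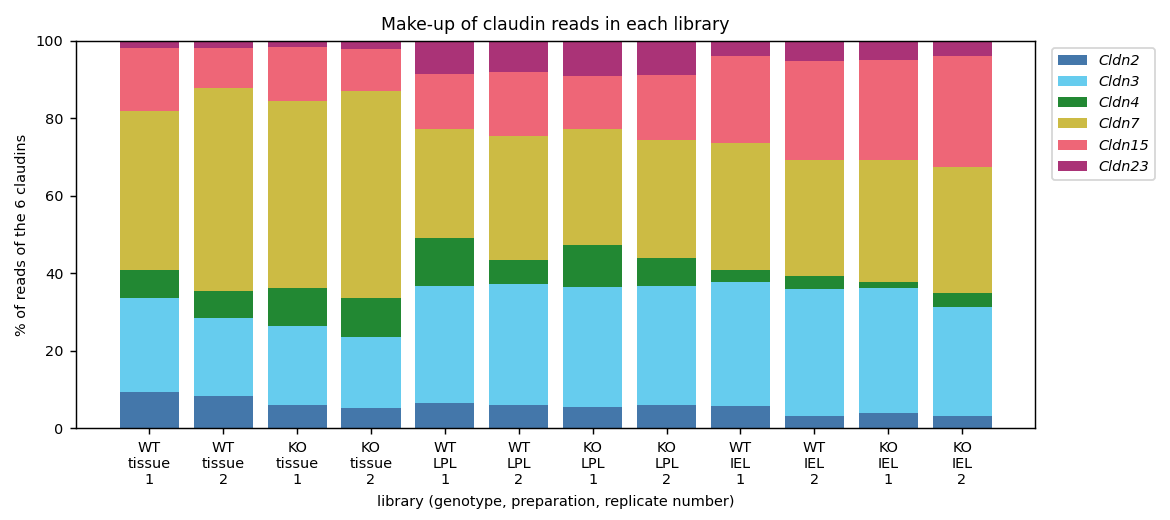
Share of each claudin in the reads of the 6 claudins, in percent, as stacked bars for the 12 libraries. Cldn7 holds 41.1% to 53.3% in tissue, Cldn15 holds 22.6% to 28.6% in IEL, and Cldn23 holds 8.11% to 8.99% in LPL.

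F11r (gene ID 16456, chromosome 1, 171437561 to 171464593) encodes JAM-A, an immunoglobulin-like adhesion protein of the junction. In tissue its level was 315 and 349 CPM in WT and 441 and 503 in KO. The LPL values were 168 and 183 CPM in WT and 188 and 173 in KO, and in IEL 159 and 147.1 in WT and 143.5 and 151 in KO. The 3 preparations did not overlap, with tissue highest and IEL lowest. Means were 402 ± 85.9 CPM in tissue, 178 ± 9.12 in LPL and 150.2 ± 6.61 in IEL. F11r was 2.63-fold lower in IEL than in tissue (log2 -1.40, SE 0.12, adjusted p = 0.000152) and 2.22-fold lower in LPL (log2 -1.15, SE 0.12, adjusted p = 8.83e-05). On the epithelial scale these differences were smaller and still called (-0.54 and -0.39). The difference between IEL and LPL was not called (log2 -0.25, SE 0.12, adjusted p = 0.165).

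Ocln (gene ID 18260, chromosome 13, 100496504 to 100552718) encodes occludin, a membrane protein of the strands. In tissue its level was 131 and 174 CPM in WT and 155 ± 9.87 (SD, n = 2) in KO, where the higher library had 162. LPL libraries had 95.8 and 118 CPM in WT and 104 and 138 in KO, and in IEL 122 and 98.0 in WT and 99.0 and 91.1 in KO. IEL was below tissue with no overlap, and LPL overlapped with both. Ocln was lower in IEL than in tissue (log2 -0.59, SE 0.16, adjusted p = 0.0143). It was also called lower in LPL (log2 -0.44, SE 0.15, adjusted p = 0.0383). The first call was lost without WT tissue replicate 2 (-0.48, adjusted p = 0.0557), WT IEL replicate 2 (-0.49, 0.062) or KO IEL replicate 2 (-0.54, 0.0559). The second was lost without WT tissue replicate 2 (-0.29, adjusted p = 0.178), KO tissue replicate 1 (-0.39, 0.0952), KO tissue replicate 2 (-0.36, 0.124), WT LPL replicate 1 (-0.35, 0.128) or KO LPL replicate 1 (-0.28, 0.20). Without both tissue libraries numbered 2 the values were -0.51 (adjusted p = 0.06) and -0.32 (0.16). On the epithelial scale both changed sign (0.26 and 0.32) and neither was called. Over all alternatives the adjusted p ran from 0.000693 to 0.192 for IEL and from 0.00974 to 0.20 for LPL. The difference between IEL and LPL was not called (log2 -0.15, adjusted p = 0.519).

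For the plaque proteins no difference passed in the main scaling. Tjp1 (gene ID 21872, chromosome 7, 65296165 to 65527850) encodes ZO-1, the scaffold that binds claudins, occludin and JAM-A. Its level in tissue was 98.5 and 161 CPM in WT and 130 and 207 in KO, in LPL 86.2 and 134 in WT and 94.8 and 138 in KO, and in IEL 138 and 102 in WT and 127 and 95.3 in KO. All 3 preparations overlapped, and in tissue and LPL the libraries numbered 2 were the higher ones in both genotypes. The log2 differences were not called (-0.36 for IEL minus tissue, -0.38 for LPL minus tissue and 0.03 for IEL minus LPL, SE 0.25 each, adjusted p = 0.277, 0.222 and 0.955). Cgn (gene ID 70737, chromosome 3, 94760069 to 94787725) encodes cingulin, which links the plaque to actomyosin. Its level was 153 and 220 CPM in WT tissue, 215 and 264 in KO tissue, 157 and 161 in WT LPL, 163 and 167 in KO LPL, 201 and 182 in WT IEL and 176.2 and 210 in KO IEL. IEL lay above LPL with no overlap, and tissue overlapped with both. No difference of Cgn passed in the main scaling (log2 -0.14, -0.38 and 0.25 in the same order, SE 0.15 each, adjusted p = 0.478, 0.0531 and 0.272). LPL minus tissue passed without WT tissue replicate 1 (-0.49, adjusted p = 0.0189), and on the epithelial scale the sign turned in IEL minus tissue (0.71, adjusted p = 0.00925) and LPL minus tissue (0.37, not called). Over all alternatives the adjusted p ran from 0.00925 to 0.973 and from 0.0132 to 0.273.

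Of the members, 3 share bases with other annotated genes, and whether reads were counted by strand is not given in the sources used here. Cldn3 shares 44 bases with the noncoding gene Wbscr25, Cgn shares 1224 bases with the noncoding gene Gm52626, and Ocln holds a small nucleolar RNA gene. These overlaps are of whole gene spans, introns included, and whether exons overlap was not examined. How reads in the overlaps were counted is not given in the sources used here.

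Knockout was compared with wild type within each preparation, to ask what loss of lnc13 did to barrier genes after gluten. In whole tissue 9 of 10 members had a positive log2 difference, with Cldn4 and F11r at the top, and no member passed the test. By edgeR's quasi-likelihood test 0 of 14716 genes were called in any of the 3 preparations (0% of genes tested), so every member had an adjusted p of 1. In tissue 463 genes were at an unadjusted p under 0.05, among them 2 members, and the DESeq2 Wald test called 4 genes, 0 of them members. Groups of 2 libraries did not overlap for 5 members higher in KO (Cldn3, Cldn4, Cldn7, Cldn23 and F11r) and 1 lower (Cldn2), beside 13.3% and 12.3% of all genes tested. The median of the members was 0.37, against -0.01 for all genes, of which 7157 were positive and 7511 negative. Neighbouring junctions leaned the same way, with 6 of 6 desmosome and 9 of 10 adherens junction genes positive (medians 0.37 and 0.23). So did the 5 measured partners and proteases that act on claudins, all positive (median 0.41). Of other tight junction lists, 14 of 22 plaque and polarity genes and 6 of 11 membrane proteins were positive (medians 0.08 and 0.17).

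Cldn4 in tissue had a mean of 199 ± 2.13 CPM for WT and 360 ± 16.9 for KO (n = 2). The difference was 1.81-fold (log2 0.86, SE 0.36, 95% interval 0.05 to 1.66, and by edgeR adjusted p = 1). Both KO libraries were above both WT libraries. F11r was 332 ± 24.4 and 472 ± 44.1 CPM, 1.42-fold apart (log2 0.51, SE 0.17, interval 0.14 to 0.88), also with no overlap. For Cldn7 the levels were 1322 ± 240.3 and 1851 ± 182 CPM (log2 0.49, SE 0.26, interval -0.10 to 1.07). The log2 differences of Tjp1 (0.37), Cldn23 (0.37), Cgn (0.36), Cldn15 (0.25), Cldn3 (0.18) and Ocln (0.02) had intervals across 0. Leaving out 1 library moved Tjp1 between 0.014 (without KO tissue replicate 2) and 0.70 (without WT tissue replicate 2), Cldn23 between 0.12 (without KO tissue replicate 2) and 0.53 (without KO tissue replicate 1), and Cgn between 0.12 (without WT tissue replicate 1) and 0.58 (without WT tissue replicate 2). Cldn7 ran from 0.31 (without WT tissue replicate 1) to 0.61, while Cldn4 kept to 0.78 to 0.87 and F11r to 0.42 to 0.53. Cldn2 alone was negative, from 251 ± 12.5 CPM for WT to 203 ± 14.6 for KO (log2 -0.30, SE 0.32, interval -1.02 to 0.41).

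Markers of cell types also differed between KO and WT tissue, though edgeR called none of these genes. Summed villus genes were 15310 and 29290 CPM in WT and 30550 and 38990 in KO, with 7 of 8 of them positive and a median log2 difference of 0.73. Summed pan-epithelial genes were 22720 and 25950 CPM in WT and 28710 and 29380 in KO, with 7 of 10 positive and a median of 0.20. All 10 smooth muscle genes and 8 of 9 crypt genes were negative (medians -0.23 and -0.44). All 6 Paneth cell genes were negative too (median -0.19), and of 6 goblet cell genes 3 were positive and 3 negative. The epithelial lists thus moved in different directions. Of gut region genes, 5 of 6 proximal and all 5 distal ones were positive (medians 0.61 and 0.29). Of 10 T cell genes 9 were positive (median 0.26), and all 4 plasma cell genes were negative (median -0.91). The part of cell content in the differences of the members was not tested. Scaled to the pan-epithelial genes, which moved the median of all genes to -0.12, Ocln turned to -0.09 and the sign of the other 9 members was kept.

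In LPL preparations the members' log2 differences between KO and WT ran from -0.0073 for Cldn2 to 0.24 for Cldn23, with a median of 0.12 against 0.01 for all genes. Cell content moved with this comparison. All 10 T cell genes and all 4 myeloid genes were negative (medians -3.11 and -3.68), with 9 and 4 at an unadjusted p under 0.05. The myeloid genes summed to 126 CPM in WT LPL replicate 1 and to at most 5.87 in the other 3 LPL libraries, and that library also had the lowest sum of the 10 members, 2134 CPM against 2622 to 2682. Without it 5 members turned from positive to negative, Cldn3 (-0.041), Cldn7 (-0.12), Cldn15 (-0.13), Tjp1 (-0.20) and F11r (-0.021), Cldn4 was at 0.54 and Cldn23 at 0.099. Groups did not overlap for 2 members, Cldn23 and Cgn, both higher in KO, beside 9.89% of genes higher and 8.60% lower. Cldn23, whose libraries are given above, had an interval of -0.24 to 0.73 around its log2 difference. On the epithelial scale, which moved the median of all genes to -0.19, 8 of the members turned from positive to negative. In LPL 448 genes, 0 of them members, were at an unadjusted p under 0.05, and DESeq2 called 1 gene.

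In IEL preparations the log2 differences ran from -0.39 for Cldn4 to 0.18 for Cldn15, with a median of -0.07 against -0.02 for all genes. All 10 T cell genes and all 9 crypt genes were negative as well (medians -0.32 and -0.25), and their part was not tested. Only for Cldn15 did the groups not overlap, with KO higher, beside 14.8% of genes higher and 12.3% lower. Its interval was -0.41 to 0.77. The low Cldn4 value rests on KO IEL replicate 1, at 25.0 CPM, and without that library its log2 difference was 0.093. At an unadjusted p under 0.05 there were 120 genes, 0 of them members, and DESeq2 called 1.

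**Figure D4:**
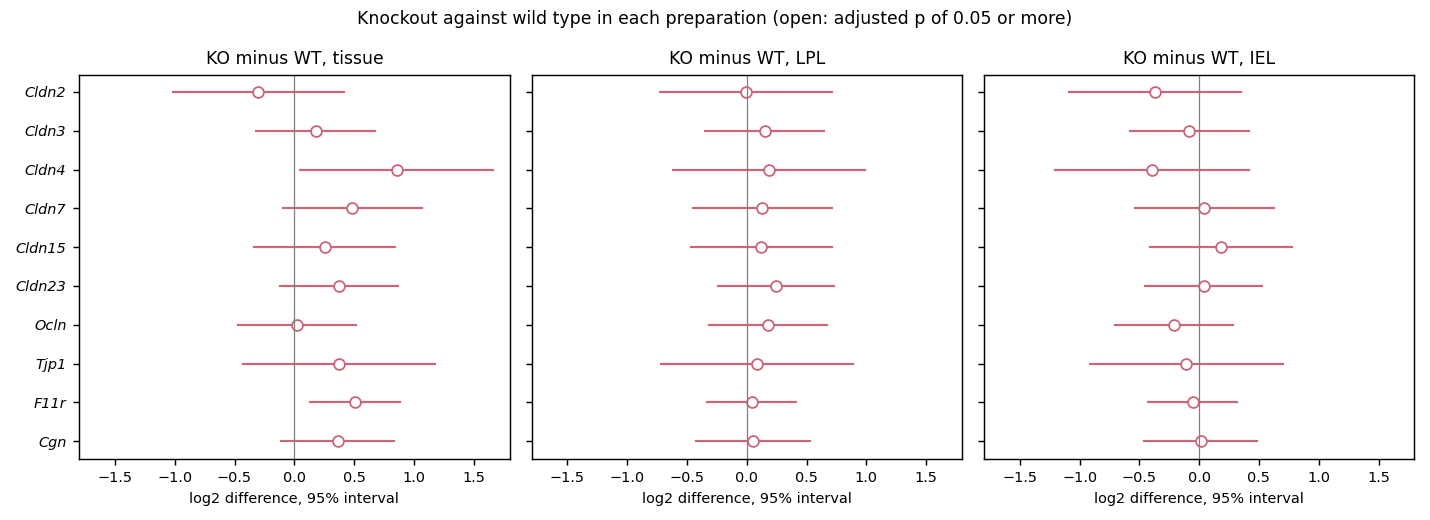
Log2 difference between KO and WT for each member in tissue, LPL and IEL, with 95% intervals and 2 libraries per group. The intervals of Cldn4 (0.05 to 1.66) and F11r (0.14 to 0.88) in tissue lie above 0, all others cross 0, and no member had an adjusted p under 0.05.

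Whether the KO effect differed between preparations was tested as an interaction. No gene was called, and 0% of genes tested passed. Cldn4 had a KO effect 1.25 lower in IEL than in tissue on the log2 scale (-1.25, SE 0.51, edgeR adjusted p = 1), and for F11r the same difference was -0.56 (edgeR adjusted p = 1). Both were at an unadjusted p under 0.05, the only 2 of the 10 members there. Of all 14716 genes, about as many were at that level as for KO minus WT within IEL (120). The Cldn4 value leaned on the IEL knockout libraries, at -0.73 without replicate 1 of KO IEL, the low library, and at -1.89 without replicate 2, whereas F11r ran from -0.58 to -0.46 over the libraries left out. Against tissue the KO effect in LPL was -0.67 for Cldn4 and -0.47 for F11r, neither called, and leaving out 1 library gave -0.98 to -0.31 for Cldn4. These interactions share the tissue libraries.

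Other genes of the tight junction were read from fixed lists. Among 17 other claudins only 4 passed the low count filter. Cldn12, the most abundant of the 4 by reads, was 43.8 ± 3.87 CPM in tissue, 45.4 ± 8.24 in LPL and 35.6 ± 7.27 in IEL, and was not called. Cldn8 was near the floor in tissue, at 0.798 ± 0.32 CPM, and was higher in LPL at 3.39 ± 1.62 (log2 2.00, adjusted p = 0.00402) and in IEL at 2.46 ± 0.502 (log2 1.61, adjusted p = 0.0149). Cldn5, the claudin of endothelium, was 1.31 CPM in tissue (0.604 to 2.31) and at 0 in all 4 IEL libraries.

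Of 11 other membrane proteins of the junction 10 were lower in IEL than in tissue and 9 in LPL, and 0 were higher (medians -1.53 and -1.59), beside 23.1% and 28% of all genes called lower. Marveld3, a relative of occludin, was 139.2 ± 45.1 CPM in tissue and 47.9 ± 3.85 in IEL (log2 -1.53, adjusted p = 0.000732). Clmp, an adhesion protein of the same family as JAM-A, was 14.8 ± 7.23 CPM in tissue and 0.526 ± 0.208 in IEL (log2 -4.80, adjusted p = 0.000387). Smooth muscle genes fell too, with all 10 called below tissue in both cell preparations. Other non-epithelial lists were mixed, with 8 of 9 endothelial genes called lower and 9 of 10 T cell genes called higher in IEL. The part of such RNA in the Clmp level was not tested.

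Of 22 plaque and polarity genes 3 rose and 6 fell in IEL against tissue (21.9% and 23.1% of all genes), and 5 rose and 10 fell in LPL (27.3% and 28%), with medians of -0.26 in both. Crb3, the polarity protein Crumbs3 of the apical membrane, fell in IEL (125 ± 26.9 to 50.5 ± 6.53 CPM, log2 -1.29, adjusted p = 0.00028) and in LPL (56.0 ± 4.20 CPM, log2 -1.14, adjusted p = 0.00016). Prkcz, an atypical protein kinase C, fell in LPL (131 ± 18.0 to 44.5 ± 6.90 CPM, log2 -1.55, adjusted p = 4.6e-05), as did Arhgef2, a junctional activator of RhoA (92.5 ± 15.5 to 26.1 ± 0.668 CPM, log2 -1.82, adjusted p = 0.000122). Rising genes were Sympk (log2 0.68 in IEL and 0.67 in LPL), whose product is also a nuclear RNA-processing factor, and the angiomotins Amotl2 (1.00 and 1.32) and Amot (0.83 and 1.46). The polarity gene Pard6b rose in LPL, from 87.01 ± 31.6 to 133 ± 18.8 CPM (log2 0.66, adjusted p = 0.0117). Between IEL and LPL, 3 of the 22 were higher in IEL (Arhgef2 1.53, Prkcz 0.73 and Patj 0.87) and 1 lower (Pard6b -1.04), beside 11.5% and 7.92% of all genes.

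Of the 5 measured partners and proteases that act on claudins 4 were lower in IEL and 4 in LPL, and 0 were higher, beside the same shares of all genes. Epcam, which binds and stabilises claudin-7, was 3810 ± 929.7 CPM in tissue, 1181 in LPL and 1086 ± 90.7 in IEL (log2 -1.68 and -1.796, adjusted p = 0.000268 and 5e-04 against tissue). The protease inhibitors Spint1 (log2 -1.21 in IEL and -1.63 in LPL) and Spint2 (-1.47 in IEL), which restrain the matriptase that cleaves Epcam, were also lower. Epcam belongs to the 10 pan-epithelial genes as well. None of these lists had a gene called between KO and WT in any preparation by edgeR, where 0% of all genes were called.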

How the data were processed

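Poly(A) RNA of whole small intestine, LPL and IEL preparations had been made into libraries with a NEBNext Ultra II RNA kit, per the labels' protocols. The authors deposited raw counts of reads per gene, keyed by Entrez ID. HISAT2 is the aligner named per the file headers, while TopHat is the one named in the submitters' processing notes, which also give featureCounts, DESeq and the build mm10. Multi-mapping and strand settings are not given in the sources used here. Symbols were found for 25275 of 27179 gene IDs, which hold 99.17% of reads. Gene coordinates and promoter windows are from RefSeq on GRCm38.p6. With no gene models, levels were not divided by length and are not compared between genes.

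One fit over all 12 libraries, in 6 groups, used edgeR 4.0.16 in R 4.3.3 (TMM factors, filterByExpr, quasi-likelihood test, Benjamini-Hochberg adjustment at 0.05 over 14716 genes). Within each preparation KO was set against WT, and preparations were compared over the mean of both genotypes. CPM used the same TMM factors. Values after ± are SD. Replicates of a group were distinct libraries, since their counts differed by more than sampling noise. The members, gene lists and tests were chosen with earlier results of these data known. All 10 members are named in each comparison, and of the other junction lists up to 6 called genes per direction with the smallest adjusted p (not all of them are described). Cldn12 and Cldn5 were named after their values were seen. The fit was tested on simulated data with known changes.

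Same-numbered WT and KO libraries had correlations of 0.68 (tissue), 0.38 (LPL) and 0.57 (IEL) once group means were removed. In groups of 2 the swapped pairing has the mirrored value, so this cannot show pairing, and the labels state none. Alternatives were DESeq2 1.42.0 size factors and its Wald test, no filter on low counts, scaling to 10 pan-epithelial genes, a replicate block, fits of fewer libraries, and leaving out each library. Figures and sequence searches used Python 3.11.15.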

Additional observations from a re-analysis of the deposited data

Results flagged for a closer look

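Cldn4 in IEL preparations had 1 library far from the others. KO IEL replicate 1 was at 25.0 CPM, while the other 3 libraries lay between 50.2 and 53.8 CPM, so that its gap to the nearest was 0.908 of the whole range, above the Dixon limit for 4 samples. Checks of this kind were made for 30 sets of 4 libraries, and chance gives about 1 in 20.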

How the results depend on the processing

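Values are log2 differences, and the cause of each change was not tested. With 2 libraries per group and preparations that differ in markers of cell types and gut region, precision is limited by the number of libraries and not by depth. With a replicate block 0 genes were called between KO and WT in tissue, LPL and IEL, and Cldn4 and F11r in tissue had 0.86 and 0.51 (adjusted p = 0.315 and 0.292). A replicate block across preparations called 5647, 7136 and 2050 genes in IEL minus tissue, LPL minus tissue and IEL minus LPL. Under it Cldn2 in IEL minus LPL (-0.87, adjusted p = 0.051) and Ocln in LPL minus tissue (-0.44, adjusted p = 0.0618) lost their calls. Ocln in LPL minus tissue also lost its call without the filter (-0.41, adjusted p = 0.0883) and in the fit of 2 preparations alone (-0.37, adjusted p = 0.1), and Cldn4 there was called with DESeq2 size factors (-0.67, adjusted p = 0.0493). Cldn2, Cldn4, Cldn7 and F11r in IEL minus tissue, Cldn7, F11r and Cldn23 in LPL minus tissue, and Cldn4 and Cldn23 in IEL minus LPL were called in the same direction under every alternative run.

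Scaling to the pan-epithelial genes called 10066 genes in IEL minus tissue, 8838 higher and 1228 lower, against 3230 and 3399. In LPL minus tissue it called 7874 higher and 1852 lower, against 4016 and 4118. In KO minus WT it reversed Ocln in tissue (-0.087); Cldn3 (-0.033), Cldn4 (-0.084), Cldn7 (-0.043), Cldn15 (-0.047), Ocln (-0.0077), Tjp1 (-0.072), F11r (-0.16) and Cgn (-0.16) in LPL; and Cldn7 (-0.039), Cldn23 (-0.066) and Cgn (-0.076) in IEL. In IEL minus tissue it reversed Cldn3 (0.48), Ocln (0.26), Tjp1 (0.48) and Cgn (0.71), and in LPL minus tissue Cldn3 (0.60), Cldn4 (0.18), Cldn15 (0.30), Ocln (0.32), Tjp1 (0.34) and Cgn (0.37). The F11r difference between the KO effects of IEL and LPL became 0.021. Cldn2 in LPL, KO minus WT, crossed 0 with DESeq2 size factors (0.00071), no filter (0.0029) and the DESeq2 Wald test (0.0011). Cldn15 in IEL minus tissue crossed 0 with DESeq2 size factors (-0.063), the Wald test (-0.062) and the fit of 2 preparations alone (-0.021), where Tjp1 in IEL minus LPL was -0.0065. The Wald test called 4 genes in tissue, 1 in LPL and 1 in IEL between KO and WT. Leaving out both tissue libraries numbered 2, an alternative chosen after seeing the data, gave 3955 genes in IEL minus tissue, Cldn15 at -0.27 and Cgn at 0.015.

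Leaving out 1 library gave 0 to 3 genes between KO and WT in tissue (3 without KO replicate 1) and 0 to 4 in LPL (4 without WT replicate 2). IEL minus LPL had 1267 to 2561 genes, against 2856. The lowest counts came on removal of WT IEL replicate 2 (1267), of KO LPL replicate 1 (1290), and of replicate 2 (1320) or replicate 1 (1782) of KO IEL. Members that crossed 0 had these ranges. In IEL minus LPL Tjp1 ran from -0.13 to 0.17, and in IEL minus tissue Cgn from -0.25 to 0.0092 and Cldn15 from -0.13 to 0.18. Between KO and WT in tissue Cldn15 ran from -0.086 to 0.59, Cldn3 from -0.0097 to 0.31 and Ocln from -0.17 to 0.18. In LPL it was Cldn15 from -0.13 to 0.41, Cldn2 from -0.13 to 0.11, Cldn3 from -0.041 to 0.36, Cldn4 from -0.11 to 0.54, Cldn7 from -0.12 to 0.42, F11r from -0.021 to 0.10, Ocln from -0.036 to 0.40 and Tjp1 from -0.21 to 0.43. In IEL it was Cgn from -0.13 to 0.17, Cldn2 from -0.79 to 0.29, Cldn23 from -0.16 to 0.23, Cldn3 from -0.21 to 0.054, Cldn4 from -1.06 to 0.093, Cldn7 from -0.10 to 0.24, F11r from -0.10 to 0.022 and Tjp1 from -0.29 to 0.13.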

Other observations

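Genes of neighbouring junctions were read in the same comparisons. Of 10 adherens junction genes, which couple cells through cadherins and nectins, 6 were lower and 0 higher in IEL, and 4 were lower, 1 higher and 5 not called in LPL (medians -0.43 and -0.28), where 23.1% and 28% of all genes were called lower. The 1 higher gene was the nectin gene Nectin1, at 16.1 ± 7.37 CPM in tissue and 33.7 ± 4.29 in LPL (log2 1.07, adjusted p = 0.0165 by edgeR). Vcl, the actin linker vinculin, was 77.8 ± 7.25 CPM in LPL and 57.2 ± 5.52 in IEL (log2 -0.45, adjusted p = 0.0356). Of 6 desmosome genes 4 were lower and 0 higher in each preparation. The desmosomal plaque gene Pkp3 was 195 ± 32.0 CPM in tissue, 93.3 ± 8.96 in LPL and 120.5 ± 8.87 in IEL (log2 -1.06 and -0.69, adjusted p = 0.000205 and 0.00297).

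For each member the genes with the most similar profile over the 12 libraries were found among 10274 genes with a mean of at least 5 CPM, by the root mean square difference of mean-centred log2(CPM + 1). F11r was closest to Ywhaz (0.101) and Crb3 (0.122), and Tjp1 to Lin54 (0.143), Klf3 (0.152) and the adherens junction gene Afdn (0.158). Cldn7 was closest to Mrfap1 (0.0907), Cldn3 to Btf3 (0.0838), Cldn15 to Gsto1 (0.0971), Cldn2 to Khdrbs3 (0.227), Cldn23 to Trib1 (0.153), Ocln to Ube2e3 (0.111) and Cgn to Dcaf10 (0.0939). Cldn4 was closest to Ckap4, at 0.446. This measure also grows with a gene's own range, which was widest for Cldn4, so distances are not compared between members. These profiles share libraries, and they hold differences between preparations as well as between libraries of the same preparation.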
